A study of Mus musculus with 10 samples.

Results

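The heat shock proteins and DnaJ chaperones were followed in the adult mouse hippocampus after raised maternal estradiol. Their members were taken by name: every non-control probe whose gene name in the scanner files starts with Hspa, Hspb, Hspd, Hspe, Hsph, Hsp90 or Dnaj. This gave 142 of 41174 probes and 74 of 27342 genes, with 13 Hspa, 10 Hspb, 1 Hspd, 1 Hspe, 1 Hsph, 3 Hsp90, 4 Dnaja, 13 Dnajb and 28 Dnajc genes. The name also took in Hspbp1 and Hspbap1, which bind heat shock proteins and are not chaperones themselves. The high estradiol group (HE) held 5 adult offspring of ICR dams that had been dosed by mouth with estradiol valerate at 100 µg/kg/day, dissolved in corn oil, between E5.5 and E11.5 (days of embryonic development). The control group (NC) held 5 adult offspring of ICR dams given the same volume of corn oil alone. All 10 animals are labelled male, and total RNA of each hippocampus was read on its own 1-colour (Cy3) Agilent array. The labels do not say which animals shared a dam, so a p-value here rests on the spread among animals, which may differ from that among litters.

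Molecular chaperones bind unfolded protein and return it to its native fold or pass it to degradation. Hsp70 proteins do so in a cycle driven by ATP, in which a DnaJ (Hsp40) protein delivers the client and starts hydrolysis, and an Hsp110 protein or another exchange factor releases the ADP. Hsp90 finishes selected clients, among them the steroid hormone receptors, small heat shock proteins hold clients without ATP, and Hsp60 with Hsp10 form the folding chamber of mitochondria. Heat and other insults switch on the cytosolic genes through heat shock factor 1, while unfolded protein in the endoplasmic reticulum (ER) switches on a separate set that holds Hspa5, the ER Hsp70 also called BiP. In neurons, which keep their proteins for long and far from the cell body, DnaJ proteins such as the cysteine string protein Dnajc5 serve the synaptic vesicle cycle.

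Elements of both arms of this regulation were searched for in the promoters. RefSeq promoters of build GRCm38.p6, from 250 bases before to 50 after each start, matched 60 of the 74 genes with 77 promoters. The ER stress element, CCAAT and CCACG with 9 bases between them, searched on both strands, was present in 3.9% of these promoters and in 0.119% of all 32851 promoters. Its 3 carriers were Hspa5, Hsp90b1 and Dnajc3, and they are shown because they are 3 of the 7 ER stress members described below; the capitals mark the element, which occurs at 2 places in Hsp90b1.
Hspa5 (chr2:34771980-34772088, plus strand): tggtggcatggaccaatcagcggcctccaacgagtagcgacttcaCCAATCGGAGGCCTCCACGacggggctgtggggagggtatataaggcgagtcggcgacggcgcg
Hsp90b1 (chr10:86705488-86705694, minus strand): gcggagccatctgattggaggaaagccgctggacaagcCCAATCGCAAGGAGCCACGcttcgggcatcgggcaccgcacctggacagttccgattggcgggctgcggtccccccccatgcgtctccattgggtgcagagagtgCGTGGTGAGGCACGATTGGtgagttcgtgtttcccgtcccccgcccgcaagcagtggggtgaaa
Dnajc3 (chr14:118937782-118937890, plus strand): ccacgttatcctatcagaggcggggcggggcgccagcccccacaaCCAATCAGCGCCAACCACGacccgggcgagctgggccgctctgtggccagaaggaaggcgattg
A heat shock element of 3 units, GAA, TTC and GAA with 2 bases between neighbours, searched on both strands, was present in 7.79% of the member promoters and in 0.603% of all promoters. Its carriers were Dnajb6, Hspd1, Hspe1 and Hsph1, with 6 promoters in all. Hspa1a and Hspa1b were searched and had no match to these letters. Hsp90aa1, Hsp90ab1, Hspa8 and Hspa13 are among the genes without a matched promoter, so no element was searched there. Hspd1 and Hspe1, which encode mitochondrial Hsp60 and Hsp10, share 1 stretch read in opposite directions, and their element is shown on the Hspd1 strand beside that of Dnajb6; the capitals mark the element, of which 2 matches overlap in the Hspd1 stretch.
Hspd1 (chr1:55088014-55088121, minus strand): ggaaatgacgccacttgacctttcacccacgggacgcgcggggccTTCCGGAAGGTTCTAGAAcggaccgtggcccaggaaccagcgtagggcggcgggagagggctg
Dnajb6 (chr5:29735807-29735897, plus strand): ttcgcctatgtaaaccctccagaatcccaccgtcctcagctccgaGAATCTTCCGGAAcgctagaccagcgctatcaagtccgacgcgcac
The palindromic estrogen response element, GGTCA and TGACC with 3 bases between them, was found in 0 of 77 member promoters and in 0.07% of all promoters. A match in letters describes these windows only, and the absence of one says only that the letters are not in the window.

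The heat-inducible Hsp70 is encoded by a pair of neighbouring genes, Hspa1a and Hspa1b. The 250 bases before their starts were 98.8% identical, with 247 of 250 bases shared, and both are shown because this pair is the best known heat target of the family; the capitals mark the 3 bases that differ.
Hspa1a (chr17:34972157-34972406, minus strand): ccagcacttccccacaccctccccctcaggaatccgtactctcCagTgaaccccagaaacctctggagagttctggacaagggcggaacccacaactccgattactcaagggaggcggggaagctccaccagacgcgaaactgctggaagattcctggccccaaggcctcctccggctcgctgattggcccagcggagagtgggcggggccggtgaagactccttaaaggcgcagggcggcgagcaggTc
Hspa1b (chr17:34959239-34959488, minus strand): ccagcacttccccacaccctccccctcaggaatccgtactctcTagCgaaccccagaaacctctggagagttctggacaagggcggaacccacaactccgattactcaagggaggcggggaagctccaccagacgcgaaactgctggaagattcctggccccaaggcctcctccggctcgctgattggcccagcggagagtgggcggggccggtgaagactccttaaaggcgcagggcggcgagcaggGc

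Values are log2 of the processed signal relative to the 75th percentile of each array, so 0 is the level of that percentile, and values of different probes are not compared. Every fold change below is log2, HE minus NC, with its standard error, and every adjusted p is from the same limma fit over all genes unless the fit of single probes is named. The 75th percentile lay between 899 and 1289 signal units, and each array had 70.3% to 78.8% of its probes well above background. The arrays came on 3 slides, each scanned once: slide 1 held NC 1 to NC 4, slide 2 held HE 1, HE 2 and NC 5, and slide 3 held HE 3 to HE 5. Despite the male labels, Xist, the RNA made by the inactive X chromosome of females, was high (3.20 to 4.44) on 7 of 10 arrays, 3 HE and 4 NC, and low (-7.26 to -4.53) on HE 4, HE 5 and NC 5. Marker genes of other tissue also differed between the groups. Thalamic markers were lower in HE for 8 of 10 genes and their summed level ran from 2.92 to 4.44 in HE and from 4.94 to 6.31 in NC, while myelin markers were lower for 8 of 11 genes, with sums of 8.01 to 8.41 in HE and 8.80 to 9.16 in NC. Of 6 astrocyte markers 2 were lower, with sums of 6.21 to 6.41 in HE and 6.79 to 7.24 in NC. These sums mostly follow S100b, at 5.66 to 5.86 in HE and 6.28 to 6.80 in NC. Slc1a3 alone went the other way, without overlap, at 3.55 to 3.69 in HE and 3.26 to 3.48 in NC, and did not pass. Of 8 liver markers 4 passed as lower (Ambp, Apoa2, Cyp2f2 and Fgg), with sums of -4.24 to -2.48 in HE and -3.27 to 2.23 in NC. These 4 were well above background on 1, 0, 2 and 0 HE arrays. They were thus measured through NC alone, so their calls could go only one way and support nothing. The same holds for Shox2 among the thalamic markers. All 8 hippocampal neuron markers were measured and none passed, with sums of 4.33 to 4.94 in HE and 3.73 to 4.54 in NC. Fits below take the thalamic or the myelin mean as a covariate. The sums of both lists separated HE from NC without overlap, so in those fits tissue content and group cannot be told apart. The part of the other lists was not tested. In whole tissue, fewer cells of a type and less RNA per cell cannot be told apart.

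Few chaperone genes passed the test between HE and NC hippocampus, and those that did went both ways. Of the 72 measured members, 4 were higher in HE (Dnajb12, Dnajc14, Hspa4 and Dnajc30) and 3 were lower (Hspa4l, Dnajc24 and Dnajc22). These 7 are 9.72% of the members, where 20.1% of all 20066 measured genes passed (6.82% higher and 13.3% lower in HE; limma, two-sided, Benjamini-Hochberg adjusted over all genes, threshold 0.05). The 7 include Dnajc22, which was measured through NC alone, the group where it is higher, so its call could go only one way and supports nothing. A gene counted as measured with a probe well above background in 3 or more of the 5 arrays of a group; 67 of the 72 were so on all 10 arrays. Dnajb7 and Dnajb8 did not meet this, with 0 arrays above background for Dnajb7 and 1 HE and 2 NC arrays for Dnajb8.

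The log2 fold change was positive for 36 members and negative for 36, with a median of 4.19e-05 beside a median of -0.0434 over all genes. It was within 0.5 of 0 for 63 of the 72 members, and the median standard error was 0.132. At an unadjusted p under 0.05 there were 18 members (25%), beside 36.9% of all genes. The values of HE and NC did not overlap for 9 members (12.5%), beside 16.4% of all genes, and 4 of these 9 did not pass the test: Hsp90aa1, Dnajc4, Dnajb9 and Dnaja4. The split between the directions moved with the scaling. Relative to the array median in place of the 75th percentile, 65.7% of all genes that passed were higher in HE, against 34% in the fit used here; 25.2% of all genes passed, and 13 members, 10 higher and 3 lower. Normexp background correction models the background of each array. It started from the mean spot signal less its local background, with an offset of 50. With it 16 members passed beside 43.5% of all genes, and after centring on the median probe 27 members passed beside 46.5% of all genes.

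**Figure D1:**
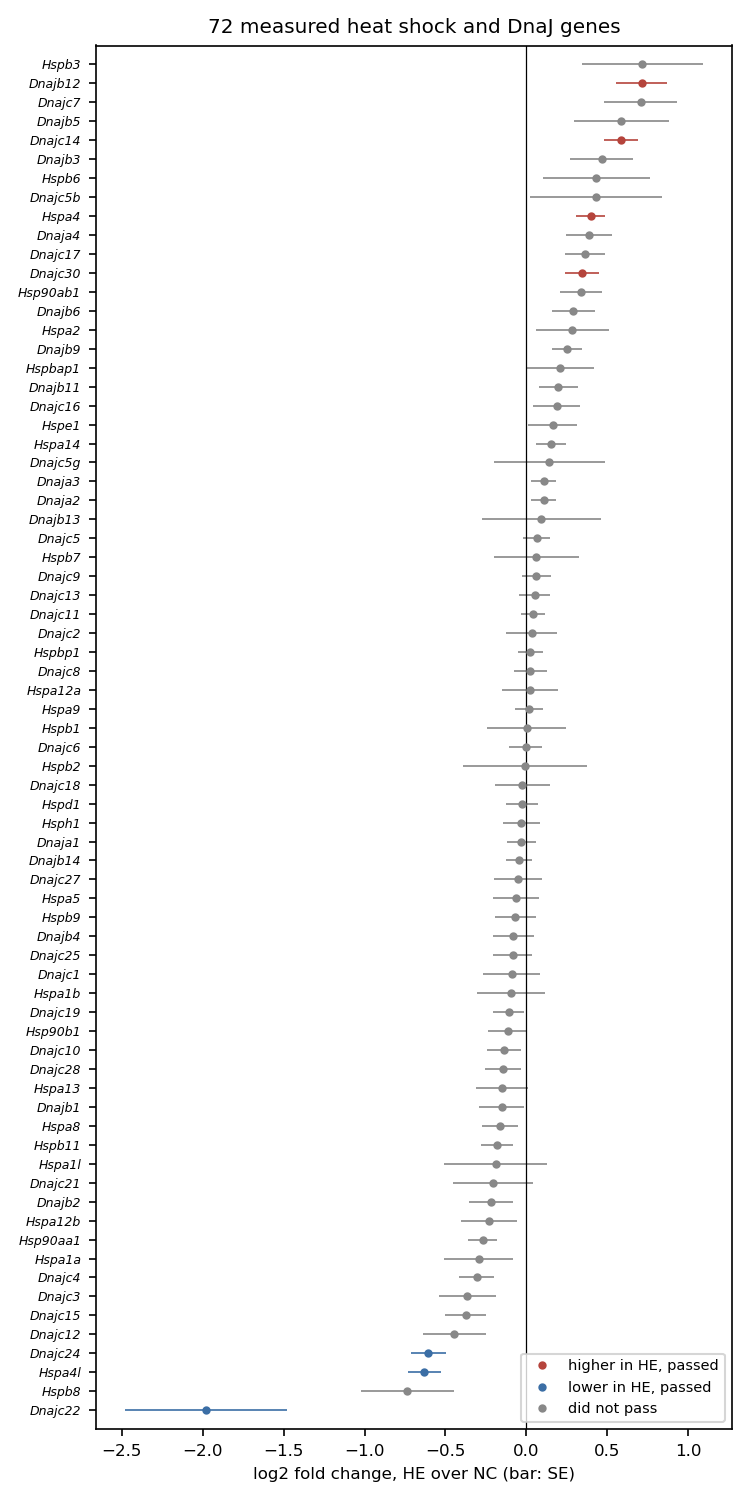
Log2 fold change of HE over NC (x axis) for each of the 72 measured members (y axis, ordered by the fold change); points are estimates of the limma fit and bars are standard errors. Red points are the 4 members higher in HE and blue points the 3 lower in HE at an adjusted p under 0.05, and 63 of the 72 lie within 0.5 of 0.

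The Hsp110 family held 2 of the 7 differences, in opposite directions. Hspa4l and Hspa4 are relatives that act as exchange factors for Hsp70, and Hsph1 is the third member. Hspa4l (probe at chr3:40594756-40594815, mm9, per the files) had 1.76, 1.79, 1.59, 1.91 and 1.49 on HE arrays 1 to 5, against 2.38, 2.21, 2.24, 2.38 and 2.47 on NC arrays 1 to 5. Every HE array was below every NC array. The means were 1.71 ± 0.16 in HE and 2.34 ± 0.11 in NC (SD, n = 5 each), a log2 fold change of -0.63 ± 0.10 (SE) with a limma adjusted p of 0.00791. Hspa4 (probe at chr11:53073347-53073406) went the other way, with 3.16, 3.04, 3.21, 3.03 and 3.02 on the HE arrays, against 2.75, 2.72, 2.88, 2.53 and 2.58 on the NC arrays. The groups did not overlap. The means were 3.09 ± 0.08 in HE and 2.69 ± 0.14 in NC (SD, n = 5 each), and the log2 fold change was 0.40 ± 0.09 (SE, limma adjusted p 0.0184). Hsph1, which heat induces, had 5.62, 5.5, 5.72, 5.17 and 5.31 on the HE arrays, against 5.60, 5.5, 5.54, 5.44 and 5.39 on the NC arrays, with a fold change of -0.03 ± 0.11 (adjusted p 0.874). HE 4 and HE 5 gave its lowest values of all 10 arrays, and the groups overlapped.

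For Hspa4l all 4 kept probes had negative log2 fold changes (-0.63, -0.35, -0.17 and -0.14), and 2 of them passed in the fit of single probes. For Hspa4 the 4 probes disagreed, at 0.40, 0.30, -0.15 and -0.56, so that their mean gave -0.0053 (adjusted p 0.977). With normexp background correction centred on the median probe, Hspa4l stood at -0.08 (adjusted p 0.751) and Hspa4 reached 1.01.

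Among the DnaJ genes, 3 of 43 measured were higher in HE and 2 were lower, beside 6.82% higher and 13.3% lower over all genes. Dnajc22, 1 of the 2 lower, was measured through NC alone and supports nothing. Dnajb12 encodes a DnaJ protein of the ER membrane that serves the degradation of misfolded ER proteins. Its brightest probe (chr10:59361954-59362013) had 2.08, 1.94, 2.19, 2.11 and 2.22 on the HE arrays, against 1.83, 1.56, 1.49, 1.02 and 1.07 on the NC arrays. All HE values were above all NC values, and the NC arrays were more spread. The means were 2.11 ± 0.11 in HE and 1.39 ± 0.35 in NC (SD, n = 5 each) and the log2 fold change 0.71 ± 0.16 (SE, limma adjusted p 0.017). A second Dnajb12 probe gave a log2 fold change of -0.00016 (adjusted p 0.999), and the mean of both probes was 0.36 (adjusted p 0.0804).

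Dnajc14, a membrane DnaJ protein known for its binding to the dopamine D1 receptor, was higher in HE as well. It had -1.13, -0.71, -0.99, -1.09 and -0.88 on the HE arrays, against -1.46, -1.75, -1.50, -1.42 and -1.61 on the NC arrays (probe at chr10:128253888-128254032). The groups did not overlap, with means of -0.96 ± 0.17 in HE and -1.55 ± 0.13 in NC (SD, n = 5 each). Its log2 fold change was 0.59 ± 0.11 (SE, limma adjusted p 0.0108), and its second probe gave 0.89 (adjusted p 0.0744). With normexp background correction the fold change was 0.25 (adjusted p 0.202).

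Dnajc24, which acts in the making of diphthamide on elongation factor 2, was lower in HE. It had -0.08, 0.02, -0.18, -0.25 and -0.26 on the HE arrays, against 0.40, 0.60, 0.45, 0.18 and 0.65 on the NC arrays (probe at chr2:105842124-105842183). The groups did not overlap, with means of -0.15 ± 0.12 in HE and 0.46 ± 0.19 in NC (SD, n = 5 each). The log2 fold change was -0.61 ± 0.11 (SE, limma adjusted p 0.0106), and the second probe gave -0.78 (adjusted p 0.0854). With normexp centred on the median probe it was -0.22 (adjusted p 0.334).

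The other 2 differences rested on less. Dnajc22, a membrane DnaJ protein whose fly counterpart acts in endocytosis, was well above background on 0 HE arrays and 3 NC arrays, so its fold change is uncertain. With HE values raised to the lowest signal well above background on each array, it was 2.13-fold lower in HE. That is not a bound, because the NC mean also holds arrays not well above background. The limma adjusted p of 0.0249 for Dnajc22 supports no call here. Its measured values were -7.05, -7.55, -8.29, -8.54 and -6.42 on the HE arrays, against -6.31, -4.67, -6.68, -5.46 and -4.83 on the NC arrays, and they overlapped. Dnajc30, a DnaJ protein of the mitochondrial inner membrane, had 2.98, 2.87, 2.97, 3.11 and 3.03 on the HE arrays, against 2.64, 2.63, 2.66, 2.93 and 2.38 on the NC arrays. The means were 2.99 ± 0.09 in HE and 2.65 ± 0.19 in NC (SD, n = 5 each) and the groups overlapped through NC 4. Its log2 fold change was 0.34 ± 0.11 (SE, limma adjusted p 0.0459), and it passed in 1 of the 10 fits that left out an array, the one without NC 4 (adjusted p 0.0204).

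**Figure D2:**
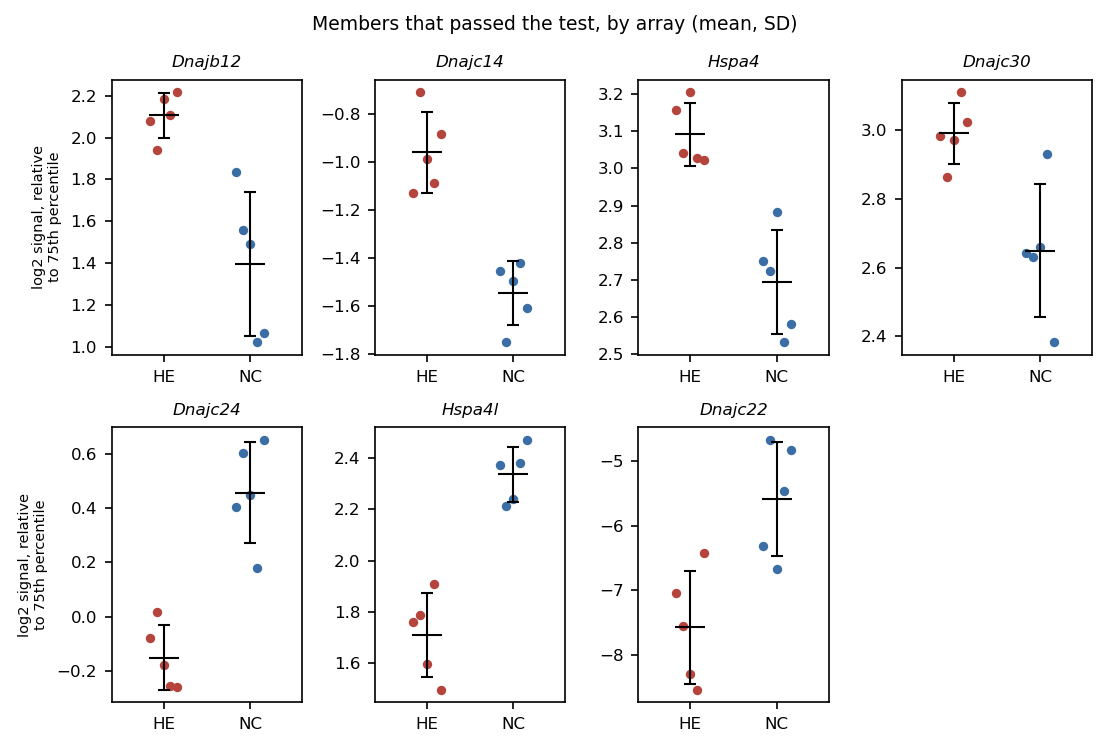
Log2 signal relative to the 75th percentile of the array (y axis, a separate scale per gene) for the 7 members that passed the test, HE on the left and NC on the right; points are single arrays and bars are mean and SD of 5 arrays. The points of the 2 groups do not overlap for Dnajb12, Dnajc14, Hspa4, Dnajc24 and Hspa4l, and they do for Dnajc30 and for Dnajc22, which was well above background on 0 HE arrays.

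None of these 7 calls held with slide as a fixed block or with tissue markers as a covariate. All 7 kept their direction in these fits, Dnajc22 included. For the members whose groups did not overlap, the fixed block could give no other sign, so that sign adds no support. With slide as a random block all 7 passed, but the correlation estimated within a slide was -0.02545, so that fit differs little from the one without a block. The fixed block rests on slide 2 alone (HE 1 and HE 2 against NC 5). Its log2 fold changes were -0.70 for Hspa4l, 0.52 for Hspa4, 0.95 for Dnajb12, 0.69 for Dnajc14, -0.68 for Dnajc24 and 0.54 for Dnajc30. With NC 5 as the only NC array there, only these sizes are given. With the mean of the thalamic markers as a covariate, Hspa4l stood at -0.35, Hspa4 at 0.30, Dnajb12 at 0.32, Dnajc14 at 0.57, Dnajc24 at -0.65 and Dnajc30 at 0.34. In that fit 0 members passed, and 6 had an unadjusted p under 0.05, beside 2519 of all 20066 genes. With the myelin markers as a covariate 0 members passed, and 9 had an unadjusted p under 0.05, beside 3260 of all 20066 genes. On the 7 arrays with high Xist alone 0 members passed, and 11 had an unadjusted p under 0.05, beside 5257 of all 20066 genes. In those fits 0 genes of the whole table passed with either marker mean and 65 passed on the high Xist arrays. With either marker mean, tissue content and group cannot be told apart.

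The members called heat-inducible here are Hspa1a, Hspa1b, Hspa8, Hspa4l, Hsph1, Hspb1, Hsp90aa1, Hsp90ab1, Hspd1, Hspe1, Dnaja1 and Dnajb1; Hspa8 and Hsp90ab1 among them are known mainly as constitutive forms. Of these 12, 1 passed (Hspa4l, lower in HE) and 11 did not, beside 20.1% of all genes that passed. Their median log2 fold change was -0.0629. Lists as small as this one and those below were not tested against the share of all genes. Each gene is read by its brightest probe. Other probes went the opposite way, at 0.41 for Hspd1, 0.37 for Hspa8, 0.18 and 0.21 for Dnaja1 and 0.10 for Dnajb1. None of them passed. Other probes of Hspa1a (-0.30) and Hspa1b (-0.12) kept the sign, as did those of Hspa4l and Hsp90ab1, given elsewhere. Hspa1a had 1.20, 1.12, 0.77, 0.83 and 0.26 on the HE arrays, against 1.41, 0.55, 1.39, 1.22 and 1.07 on the NC arrays. Hspa1b had -1.32, -1.48, -1.65, -1.68 and -2.24 on the HE arrays, against -1.34, -2.16, -1.21, -1.48 and -1.71 on the NC arrays. The groups overlapped for both genes, and in both the lowest HE array was HE 5 and the lowest NC array was NC 2. Their log2 fold changes were -0.29 ± 0.21 (adjusted p 0.342) and -0.10 ± 0.21 (adjusted p 0.781). How far the probes of these 2 related genes read each other was not tested, so their separate values are uncertain. The constitutive Hsp70 Hspa8, among the most abundant chaperones of neurons, had 6.65, 6.75, 6.83, 6.43 and 6.32 on the HE arrays, against 6.75, 6.78, 6.81, 6.65 and 6.79 on the NC arrays. Here too HE 4 and HE 5 were below all other arrays, and the fold change of -0.16 ± 0.11 did not pass (adjusted p 0.306).

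The Hsp90 genes did not share a direction, and 0 of 3 passed, beside 20.1% of all genes. Hsp90aa1, the inducible cytosolic form, had 6.47, 6.48, 6.48, 6.35 and 6.29 on the HE arrays, against 6.53, 6.65, 6.76, 6.59 and 6.89 on the NC arrays. Every HE value lay below every NC value, yet the log2 fold change of -0.27 ± 0.09 missed the threshold (limma adjusted p 0.0617), and it was -0.07 relative to the array median and 0.30 with normexp centred on the median probe. Hsp90ab1, the constitutive cytosolic form, had 5.29, 5.09, 5.40, 5.11 and 5.03 on the HE arrays, against 4.60, 4.85, 4.90, 5.22 and 4.67 on the NC arrays. Only NC 4 reached into the HE range, and the fold change was 0.34 ± 0.13 (adjusted p 0.0898), while a second probe passed at 0.61 (adjusted p 0.0114). Relative to the array median Hsp90ab1 passed as well, at 0.54 (adjusted p 0.045). Hsp90b1, the Hsp90 of the ER, had 5.5, 5.37, 5.59, 5.12 and 5.12 on the HE arrays, against 5.46, 5.48, 5.58, 5.22 and 5.54 on the NC arrays, a fold change of -0.12 ± 0.12 (adjusted p 0.514).

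The mitochondrial chaperonin pair, whose shared promoter is printed above, did not pass either. Hspd1 had 4.99, 4.84, 5.16, 4.75 and 4.83 on the HE arrays, against 4.83, 4.86, 5.05, 5.02 and 4.97 on the NC arrays. Hspe1 had 3.97, 4.08, 4.51, 3.88 and 4.04 on the HE arrays, against 3.57, 4.02, 4.23, 3.82 and 4.02 on the NC arrays. HE 3 held the highest HE value of both genes and the groups overlapped. The log2 fold changes were -0.03 ± 0.10 (adjusted p 0.859) for Hspd1 and 0.16 ± 0.15 (adjusted p 0.47) for Hspe1. Hspa9, the mitochondrial Hsp70, had 3.34, 3.17, 3.44, 3.27 and 3.25 on the HE arrays, against 3.33, 3.09, 3.35, 3.29 and 3.35 on the NC arrays, with a fold change of 0.01 ± 0.09 (adjusted p 0.922). The cytosolic DnaJ partners did not pass. Dnajb1, the main inducible Hsp40, had 4.30, 4.46, 4.55, 3.92 and 3.93 on the HE arrays, against 4.26, 4.48, 4.53, 4.37 and 4.30 on the NC arrays, and Dnaja1 differed by -0.03 ± 0.09 (adjusted p 0.837). For Dnajb1, HE 4 and HE 5 were again the 2 lowest of all 10 arrays.

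**Figure D3:**
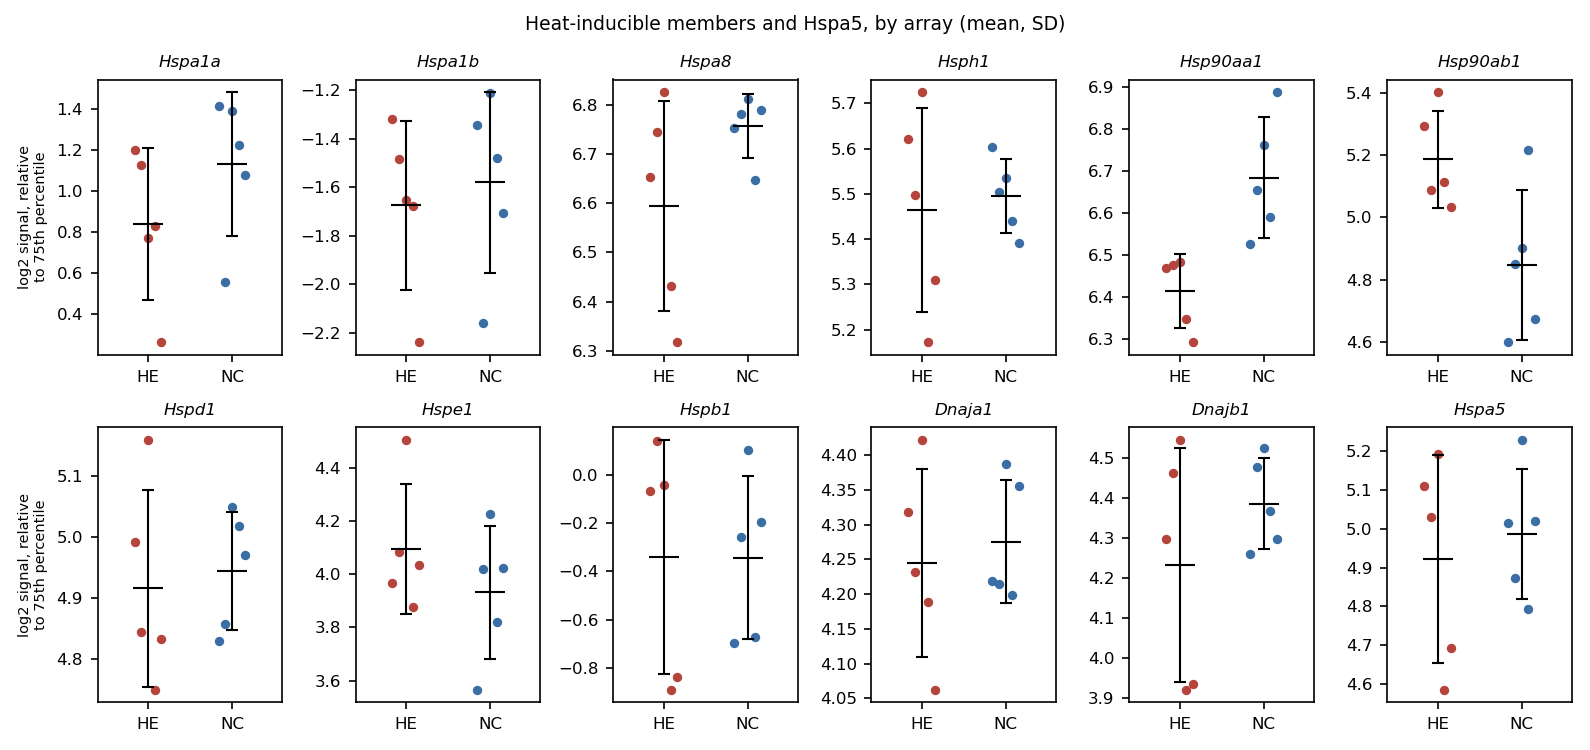
Log2 signal relative to the 75th percentile of the array (y axis, a separate scale per gene) for 11 heat-inducible members and Hspa5, HE on the left and NC on the right; points are single arrays and bars are mean and SD of 5 arrays. None of these 12 genes passed the test, and Hsp90aa1 is the only one of them whose groups do not overlap.

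Of the 7 members that ER stress induces, 0 passed (limma, adjusted over all genes), beside 20.1% of all genes. Their median log2 fold change was -0.117. Hspa5 had 5.11, 5.03, 5.19, 4.58 and 4.69 on the HE arrays, against 5.01, 4.87, 5.23, 4.79 and 5.02 on the NC arrays. HE 4 and HE 5 gave its lowest values of all 10 arrays, and its fold change was -0.06 ± 0.14 (adjusted p 0.778). Dnajc3, the ER DnaJ protein also known as an inhibitor of the stress kinase PKR, had 2.17, 2.41, 2.06, 1.84 and 1.57 on the HE arrays, against 2.28, 2.33, 2.59, 1.99 and 2.67 on the NC arrays. HE 5 was lowest, the groups overlapped, and the fold change of -0.36 ± 0.18 did not pass (adjusted p 0.167). Another Dnajc3 probe passed at -0.58 (adjusted p 0.018), and its other 2 gave -0.38 and -0.31. Dnajb9, an ER DnaJ protein of the degradation pathway, had 1.66, 1.59, 1.70, 1.69 and 1.56 on the HE arrays, against 1.17, 1.28, 1.53, 1.5 and 1.47 on the NC arrays. All HE values were above all NC values, but by a log2 fold change of only 0.25 ± 0.09 (adjusted p 0.076). The 3 carriers of the ER stress element, Hspa5, Hsp90b1 and Dnajc3, all had negative fold changes and none passed; Dnajb11, a DnaJ partner of Hspa5, had a positive one of 0.20 ± 0.12 (adjusted p 0.26).

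**Figure D4:**
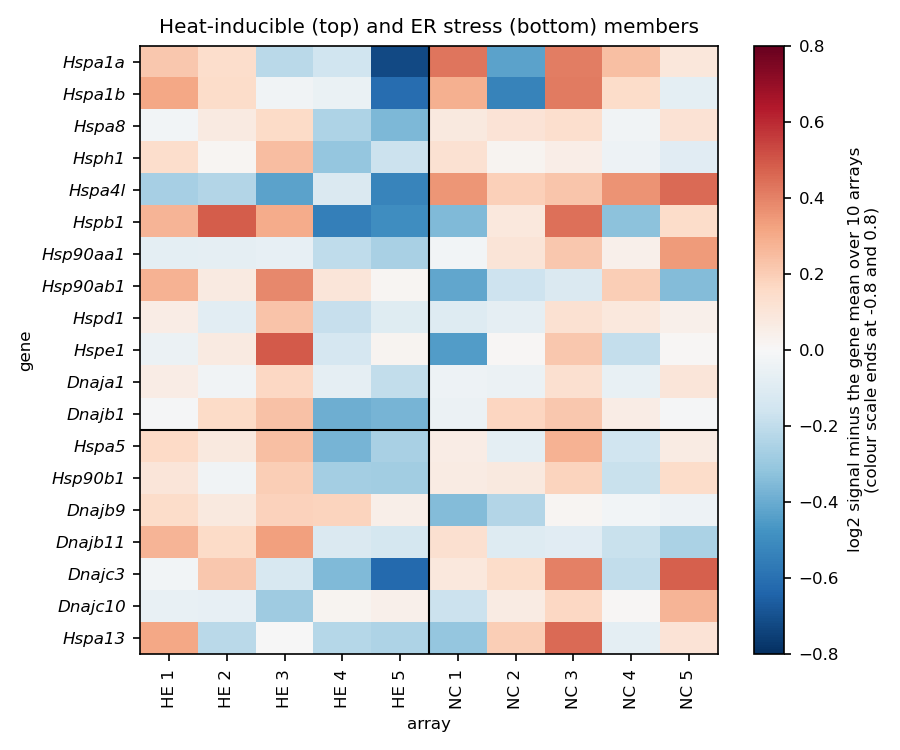
Log2 signal minus the mean of the gene over 10 arrays (colour, from -0.8 to 0.8) for 12 heat-inducible members (above the line) and 7 ER stress members (below it), by array, with HE on the left and NC on the right. HE 4 and HE 5 are the 2 lowest HE arrays for 8 of the 12 and 5 of the 7.

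Within the HE group many stress genes shared an order of arrays. HE 4 and HE 5 were the 2 lowest of the 5 HE arrays for 8 of 12 heat-inducible members (66.7%) and for 5 of 7 ER stress members (71.4%), beside 25 of all 72 members (34.7%) and 14.3% of all genes. HE 3 was the highest HE array for 8 of 12 heat-inducible members and 4 of 7 ER stress members, beside 32 of 72 members (44.4%) and 26.2% of all genes. This pattern was noticed after the values were seen, and it has no test. HE 4 and HE 5 are also the HE arrays with low Xist, and they share slide 3 with HE 3, whose Xist was high. Whether Xist status has a part in the pattern was not tested. The spread of the members within a group was below that of all genes in both groups, with a median SD of 0.184 in HE and 0.200 in NC, beside 0.210 in HE and 0.272 in NC over all genes.

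Of the 8 small heat shock proteins, 0 passed (limma, adjusted over all genes), beside 20.1% of all genes. Their fold changes ran from -0.74 to 0.72. Hspb8, which works with Bag3 in the autophagy of misfolded protein, had -0.60, -0.96, -0.99, -1.15 and -1.17 on the HE arrays, against -1.26, -0.10, -0.18, -0.25 and 0.60 on the NC arrays. NC 1 was the lowest of all 10 arrays, the other 4 NC arrays were above every HE array, and the fold change of -0.74 ± 0.29 did not pass (adjusted p 0.0936). Hspb1, the inducible Hsp27, had -0.07, 0.14, -0.04, -0.89 and -0.84 on the HE arrays, against -0.69, -0.26, 0.10, -0.67 and -0.19 on the NC arrays. The group means were nearly equal, while HE 4 and HE 5 lay below every other array, and the adjusted p was 0.993. Hspb3, a small heat shock protein known from muscle, had 0.32, 0.40, -0.63, 0.76 and 0.34 on the HE arrays, against 0.01, 0.36, -0.18, -1.34 and -1.25 on the NC arrays. Its fold change of 0.72 ± 0.38 was the most positive of all members, but the arrays of both groups were spread and it did not pass (adjusted p 0.194).

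The remaining small heat shock proteins overlapped between the groups. Hspb2, another muscle form, had -2.18, -1.71, -3.10, -1.66 and -2.23 on the HE arrays, against -1.19, -2.76, -1.60, -2.93 and -2.36 on the NC arrays. Hspb11, which despite its name belongs to the intraflagellar transport machinery, had 1.29, 1.18, 1.41, 1.25 and 1.24 on the HE arrays, against 1.28, 1.26, 1.55, 1.59 and 1.61 on the NC arrays. Its difference of -0.18 ± 0.10 did not pass (adjusted p 0.207). Of the dim ones, Hspb6, the muscle protein Hsp20, had -4.45, -4.30, -4.98, -3.12 and -4.86 on the HE arrays, against -5.09, -4.97, -4.35, -4.98 and -4.48 on the NC arrays. Hspb7, known from heart, had -5.37, -4.99, -5.49, -5.47 and -6.23 on the HE arrays, against -5.80, -5.48, -5.42, -6.18 and -4.97 on the NC arrays. Hspb9, known from testis, had -2.88, -2.69, -3.07, -3.29 and -3.15 on the HE arrays, against -3.07, -3.01, -3.08, -2.78 and -2.79 on the NC arrays. None of these 4 differences in Hspb2, Hspb6, Hspb7 and Hspb9 passed, with adjusted p of 0.99, 0.369, 0.891 and 0.736.

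Among the mitochondrial DnaJ genes 1 of 7 passed (Dnajc30, above), beside 20.1% of all genes. Dnajc15, a regulator of the import motor of the inner membrane, had 3.85, 3.83, 3.90, 3.77 and 3.67 on the HE arrays, against 3.80, 4.15, 4.42, 4.09 and 4.44 on the NC arrays. Only NC 1 lay in the HE range, and the log2 fold change of -0.38 ± 0.13 missed the threshold (limma adjusted p 0.0612). Its relative Dnajc19, of the same motor, differed by -0.11 ± 0.09 (adjusted p 0.424). Dnajc4 had no overlap between the groups, at 1.92, 1.88, 1.54, 1.97 and 1.88 on the HE arrays, against 2.05, 2.23, 2.04, 2.07 and 2.34 on the NC arrays, and a fold change of -0.31 ± 0.11 (adjusted p 0.0657). Dnaja3, Dnajc11 and Dnajc28 had fold changes of 0.11 ± 0.08, 0.04 ± 0.07 and -0.14 ± 0.11, none of which passed.

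The DnaJ genes of synaptic and endocytic vesicles gave 0 of 5 calls (limma, adjusted over all genes), beside 20.1% of all genes. Dnajc5, the cysteine string protein, had 5.02, 4.95, 4.93, 5.05 and 4.96 on the HE arrays, against 4.99, 5.02, 4.76, 5.02 and 4.80 on the NC arrays, a fold change of 0.06 ± 0.08 (adjusted p 0.617). Dnajc6, the neuronal auxilin that uncoats clathrin vesicles, had 3.38, 3.42, 3.21, 3.55 and 3.30 on the HE arrays, against 3.17, 3.28, 3.38, 3.57 and 3.49 on the NC arrays. The endosomal Dnajc13 differed by 0.05 ± 0.10 (adjusted p 0.734). These 3 genes thus had group means within 0.1 of each other. Dnajc5b and Dnajc5g, relatives of Dnajc5, were dim: Dnajc5b was well above background on 4 HE arrays and 1 NC array, and Dnajc5g on 3 HE and 2 NC arrays.

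Other DnaJ genes came near the threshold. Dnajc7, which links Hsp70 and Hsp90 through its tetratricopeptide repeats, had 2.17, 1.90, 2.46, 2.20 and 2.31 on the HE arrays, against 2.04, 0.96, 2.02, 1.30 and 1.18 on the NC arrays. NC 1 and NC 3 overlapped the HE range and the other 3 NC arrays lay below it. The log2 fold change was 0.71 ± 0.22 with an adjusted p of 0.0509 over genes and 0.0461 in the fit of single probes. Dnajc12, a co-chaperone of the aromatic amino acid hydroxylases, had 1.77, 1.63, 1.92, 1.83 and 1.80 on the HE arrays, against 1.58, 2.38, 2.11, 2.28 and 2.82 on the NC arrays. NC 1 was the lowest of all 10 arrays and the fold change was -0.45 ± 0.19 (adjusted p 0.125). Dnaja4 had 2.04, 2.09, 2.37, 1.95 and 1.95 on the HE arrays, against 1.79, 1.53, 1.89, 1.94 and 1.31 on the NC arrays, without overlap, at 0.39 ± 0.14 (adjusted p 0.0769).

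Probes of 1 gene often differed. Of the 72 members 33 had a single kept probe and 39 had several, and in 19 of these the probes had fold changes of both signs. Among all 135 kept member probes 23 passed (17%), 13 higher and 10 lower in HE, beside 23% of all 30978 probes. They lay in 20 genes, and in 0 genes did probes pass in both directions. For 12 genes a probe passed that was not the brightest one, while the brightest did not: Dnaja3, Dnaja4, Dnajb5, Dnajc5, Dnajc16, Dnajc17 and Hsp90ab1 upward, and Dnajb4, Dnajc3, Dnajc10, Dnajc28 and Hspa12a downward.

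The gaps between such probes were large for a few genes. Dnajc5 had a probe at chr2:181283452-181283511 (mm9, per the files) with a log2 fold change of 0.66 (adjusted p 0.0108) and 2 others at 0.06 and 0.12. Dnajc16, a membrane DnaJ protein, had 4 probes at 0.85, 0.45, 0.34 and 0.19, of which the first 2 passed. Dnajc10, an ER disulfide reductase, had 2 probes that passed at -0.51 and -0.42, and 2 at -0.14 and 0.0048. These last 2 lie close together, at chr2:80193629-80193688 and chr2:80193765-80193824. In Hspa12a, a distant Hsp70 relative of the brain, a probe of a cDNA clone at chr19:59001330-59001389 passed at -0.69 (adjusted p 0.0259), while the other 3 gave 0.17, 0.02 and -0.15. In Dnajb4 a probe of another clone passed at -0.92 (adjusted p 0.031) and the others gave -0.15, -0.12 and -0.08. The Dnajb4 probe that passed was well above background on every array but dim, with means of -5.51 in HE and -4.59 in NC, and its groups overlapped.

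**Figure D5:**
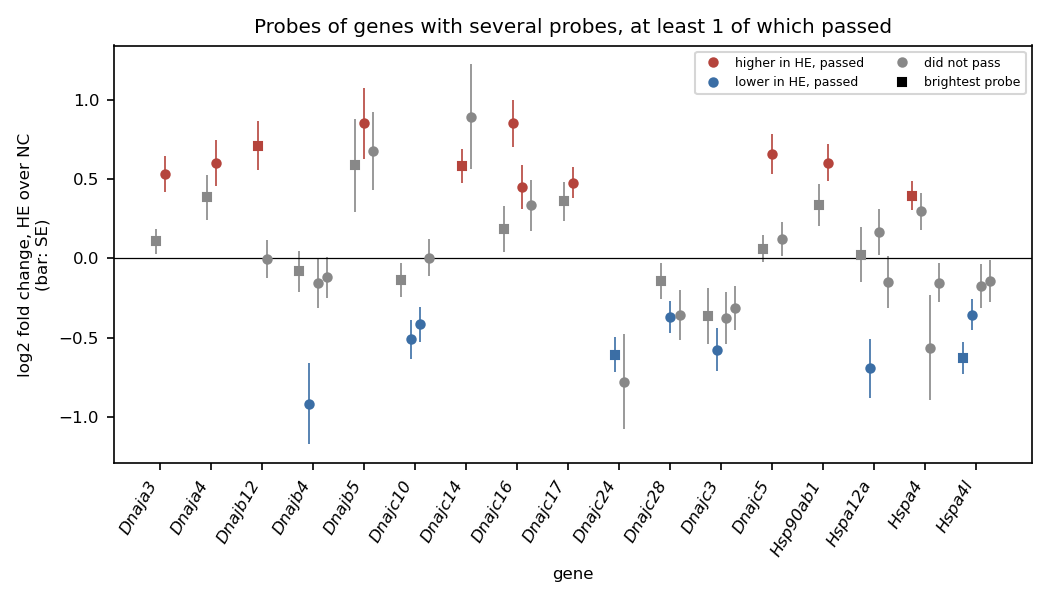
Log2 fold change of HE over NC (y axis) of every kept probe, for members with several probes of which at least 1 passed in the fit of single probes; squares are the brightest probe of the gene, which represents it elsewhere, circles the others, and bars are standard errors. In 12 genes only a circle is coloured, and probes of Hspa4 and Hspa12a lie on both sides of 0.

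The partners of these chaperones were read in the same fit. Of 106 measured genes in 7 lists of regulators and co-chaperones, which hold no member beyond those already counted, 5 were higher and 8 were lower in HE, beside 6.82% higher and 13.3% lower over all genes, with a median log2 fold change of -0.0404. The list of heat shock factors and regulators (9 genes) also held Tdg, a DNA repair glycosylase that is not a heat shock factor. Tdg rose by 0.69 (adjusted p 0.0112), the only rise that passed in this list. Hsf5, a testis-enriched factor, fell by 0.82 (adjusted p 0.00641), while Hsf2 stood at -0.50 (adjusted p 0.0689). Among Hsp70 co-chaperones (17 genes, 2 higher and 2 lower) Hyou1, the Hsp110 of the ER, had 1.92, 1.78, 2.0, 1.82 and 1.88 on the HE arrays, against 1.39, 1.67, 1.41, 1.55 and 1.27 on the NC arrays. The groups did not overlap and Hyou1 rose by 0.42 (adjusted p 0.018). Bag3, the exchange factor that pairs with Hspb8, fell by 0.38 (adjusted p 0.0329) and Ttc1 fell by 0.50 (adjusted p 0.0156).

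Among Hsp90 co-chaperones (23 genes) 1 was higher and 1 lower. Cdc37l1, a relative of the kinase-loading co-chaperone Cdc37, had 2.86, 3.0, 2.44, 2.94 and 2.69 on the HE arrays, against 3.86, 3.99, 3.37, 3.57 and 3.69 on the NC arrays. It fell by 0.91 without overlap (adjusted p 0.00795), Fkbp8, an immunophilin of the outer mitochondrial membrane, rose by 0.39 (adjusted p 0.0343), and Pih1d1 stood at 0.19 (adjusted p 0.102). In ER folding and the unfolded protein response (27 genes) Ppp1r15a, the phosphatase subunit Gadd34, rose by 0.39 (adjusted p 0.0187), Herpud1, of ER-associated degradation, fell by 0.29 (adjusted p 0.0461), and the ER stress sensor Atf6 stood at 0.48 (adjusted p 0.0543). Of 17 subunits of the cytosolic chaperonin and prefoldin Pfdn1 alone passed and fell by 0.43 (adjusted p 0.0199), beside Pfdn5 at -0.23 and Cct3 at 0.40. Of 11 genes of mitochondrial protein quality control the protease subunit Clpp alone passed and fell by 0.34 (adjusted p 0.0349), beside Spg7 at 0.26 and Pam16 at -0.22.

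The small heat shock proteins outside the Hspb names were the crystallins. Cryab, which oligodendrocytes express strongly, had 4.03, 3.90, 3.45, 3.35 and 3.06 on the HE arrays, against 4.20, 4.17, 4.57, 3.98 and 4.60 on the NC arrays. It fell by 0.75 (adjusted p 0.0311), with HE 1 inside the NC range. Cryaa stood at -0.24 and did not pass. Myelin markers were also lower in HE for 8 of 11 genes. With their mean as a covariate the Cryab log2 fold change was 0.36 ± 0.32 (SE, limma adjusted p 0.597), in a fit where 0 genes passed. In that fit myelin level and group cannot be told apart.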

How the data were processed

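Total RNA from the hippocampus of 10 mice was labelled with Cy3 and hybridised to Agilent 4x44K mouse arrays, per the labels' protocols, and the submitters' processing notes name Agilent Feature Extraction 10.7. The deposited scanner files hold background-subtracted, detrended intensity on a linear scale, per the file headers. The series table that the authors deposited holds log2 values, whose normalization is not given in the sources used here.

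Log2 processed signals were scaled to the 75th percentile of each array. Non-uniform and outlier spots (68 to 129 per array) were left out, no spot was saturated, and spots of a probe were averaged. Probes well above background on at least 3 of 5 arrays of a group were kept, and each gene was represented by its kept probe with the highest mean. Symbols were updated through RefSeq (GRCm38.p6). The comparison of HE with NC used limma 3.58.1 under R 4.3.3 (no covariate, two-sided, Benjamini-Hochberg over all genes, threshold 0.05), checked on simulated data. The 30 alternatives changed the batch terms, background, scaling, filter, joining of probes, variance model, covariates or arrays. Named were all members that passed, the members of the inducible and organelle Hsp70, Hsp90, chaperonin and small heat shock protein groups, members whose kept probes differed in sign with 1 of them past the threshold, and the 3 genes with the smallest p of each partner list; other members were named after their values were seen. The members and lists were chosen with earlier results of these data known. The number of arrays limits the precision.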

Additional observations from a re-analysis of the deposited data

Results flagged for a closer look

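In 5 of the 144 groups of 5 arrays looked at over the 72 members, 1 array stood further from the others than Dixon's 95% critical value of 0.71 allows; chance gives about 1 in 20 such groups. Dnajc4 was 1.54 on HE 3, where the other HE arrays ran from 1.88 to 1.97. Hspbap1, which binds Hspb1, was -1.55 on HE 4, where the other HE arrays ran from -1.01 to -0.87, and -1.97 on NC 5, where the other NC arrays ran from -1.23 to -0.95. Hspa9, the mitochondrial Hsp70, was 3.09 on NC 2, where the other NC arrays ran from 3.29 to 3.35. Dnajc18, a membrane DnaJ protein, was 0.29 on NC 1, where the other NC arrays ran from 1.08 to 1.19. None of these 4 genes passed the comparison of HE with NC.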

How the results depend on the processing

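Counts are given for genes, members and member probes that passed; the fit used here gave 4031 genes, 7 members and 23 member probes. With slide as a fixed block they were 185, 0 and 0, and on slide 2 alone 0 genes and 0 members passed (7071 genes and 19 members at an unadjusted p under 0.05). Normexp background correction gave 8726 genes and 16 members, and centred on the median probe 9330 genes and 27 members; the median of all genes moved by -0.239 and 0.122. The array median gave 13 members and moved that median by 0.2, the mean of kept probes gave 13 members (and 4374 of 20066 genes), a trend with a robust prior 11 members (and 4507 genes), and each probe as a feature 7113 calls. With the 7 high-Xist arrays alone, 65 genes and 0 members passed, without NC 1, NC 2 and NC 4 there were 1917 genes, and with the thalamic or the myelin mean as a covariate 0 genes and 0 members passed (2519 and 3260 genes at an unadjusted p under 0.05). Leaving out 1 array gave 1914 to 4179 genes, 5 to 11 members and 12 to 27 member probes. Genes were 1973 without HE 1, 1914 without NC 2 and 2215 without NC 5, members were 11 without NC 1, and member probes were 15 without HE 1, 12 without NC 2 and 15 without NC 5. The cause of these moves was not tested.

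The replicate numbers did not pair the samples: same-numbered arrays deviated together with correlations of -0.0772, -0.0501, 0.127, 0.118 and -0.0611, and 2 of 5 HE arrays correlated best with their own number. With the replicate block 2978 genes, 7 members (6 of them shared with the fit used here) and 20 member probes passed.

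Dim members changed sign with normexp, without and with centring on the median probe: Dnajc5b to -1.41 and -1.05, Dnajc5g to -1.38 and -1.02, Dnajb13 to -1.35 and -0.99, and Hspb7 to -1.34 and -0.97. Hspa4 changed sign with the mean of its kept probes, to -0.0053. Hspa4l, Dnajc24, Dnajc14, Dnajb12 and Hspa4 passed in all 10 fits that left out an array. For dim probes the precision is limited by signal over background.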
